A study of Mus musculus with 3 samples.

Results

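Antioxidant, glutathione and NRF2 target genes were followed across 3 single-colour expression arrays of cultured mouse cavernous endothelial cells, primary cells from the erectile tissue of C57BL/6 mice. The set was chosen by name, as 43 genes whose symbol the array's accessions map to, out of 19751 genes named on the array. All 43 were found, on 55 of the 39429 probes, and all 43 were well above background on every array, so no member was lost to the filter on dim probes. The study asked how high glucose changes gene expression in these cells and what an siRNA against Ninj1, which encodes the adhesion protein ninjurin 1, does to that state.

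The first group was exposed to high glucose (30 mmol) with the Ninj1 siRNA (200 pmol), the second to high glucose (30 mmol) alone and the third to normal glucose (5 mmol), each for 48 h. Each group is 1 array of RNA pooled over 3 numbered samples. The medium held serum, heparin and vascular endothelial growth factor A in every group. The labels name neither a control siRNA nor an osmotic control for the sugar. A single array stands for each group, so nothing could be checked across replicates or tested. The words "higher" and "lower" therefore describe these arrays, and pooling leaves no measure of the spread between cultures. In RNA from whole cultures, fewer cells of a type and less RNA per cell cannot be told apart.

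NRF2, encoded by Nfe2l2, is a transcription factor that the adaptor KEAP1 marks for degradation until oxidants or electrophiles modify KEAP1. Freed NRF2 pairs with small MAF proteins on antioxidant response elements and switches on enzymes that make and reduce glutathione and thioredoxin, detoxify quinones and heme, and supply NADPH. In endothelium these enzymes dispose of superoxide and peroxides, which are formed in excess when glucose is high, and superoxide also consumes nitric oxide, the signal for erection.

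The siRNA's own target went against its label. The Ninj1 probe read 25539 on the siRNA array, 16291 on the high-glucose array and 20413 on the normal-glucose array, which places the highest reading where the knockdown is labelled. Scaled, the Ninj1 reading was 1.34-fold higher in the siRNA library than in the high-glucose library. Taken in the order normal glucose, high glucose and siRNA, the numbers ending the deposited file names run 1, 3 and 2. The slide positions in the scanner headers run 2, 3 and 1, so they differ from the file names for the siRNA and normal-glucose arrays. Exchanging the 2 high-glucose arrays would turn the sign of every difference between those arrays. An exchange that involves the normal-glucose array was not run. Arrays are therefore named below by their labels, and every direction belongs to the library labelled so. Of 16 endothelial markers, 9 were well above background on every array, 3 on some arrays and 4 (Tie1, Emcn, Erg and Sox18) on none. On every array, 12 of 12 fibroblast, 8 of 10 smooth muscle and pericyte and 9 of 10 macrophage markers were. Over markers above background on any array, the median high-glucose reading was 101 (endothelial), 53664 (fibroblast), 15771 (smooth muscle and pericyte) and 1641 (macrophage). The share of each cell type in the antioxidant readings was not tested. Kdr, the main receptor of vascular endothelial growth factor, read 8278 (siRNA), 7298 (high glucose) and 7440 (normal glucose), and Pecam1, a junction protein, read 72.4 (siRNA), 76.5 (high glucose) and 61.9 (normal glucose); these genes were named after their values were seen. Markers past 2-fold went both ways between the siRNA and high-glucose arrays, 2 higher and 4 lower. The junction genes Cdh5 and Esam were 2.86-fold and 2.22-fold higher. Vwf, which encodes von Willebrand factor, read 32.3 (siRNA) and 66.2 (high glucose) and was 2.40-fold lower. Robo4 read 28.7 (siRNA) and 52.1 (high glucose) and was 2.13-fold lower. Tek and Cldn5 were not well above background on the siRNA array and were lower by at least 3.81-fold and 2.12-fold.

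Antioxidant genes stood on both sides of 0 when the siRNA array was set against the high-glucose array. Hmox1, Slc7a11, Tkt, Srxn1 and Gsto1 were at least 2-fold higher, which is 5 of 43 members (11.6%) against 6.52% of the 15625 named genes compared. Gstm1, Gstt1 and Keap1 were at least 2-fold lower, which is 3 of 43 (6.98%) against 8.21% of all genes. At 1.5-fold the counts were 9 higher and 6 lower, against 14.3% and 15.7% of all genes, so the set as a whole held about as many lower genes as the array did. The median member difference was 0.03 on the log2 scale, beside 0.01 over all genes, and the members ranged from -1.80 to 2.23. All scaled values are the log2 of the processed signal minus the array's 75th percentile. That percentile was a signal of 2024 on the siRNA array, 1729 on the high-glucose array and 1780 on the normal-glucose array, so a gene with equal readings before scaling comes out lower on the siRNA array. Readings given per array are before scaling, and folds and log2 differences are after it. For orientation, spots of one probe on one array give a typical spread of 0.08 for a difference, a figure that covers spot noise and no culture or hybridisation error.

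**Figure D1:**
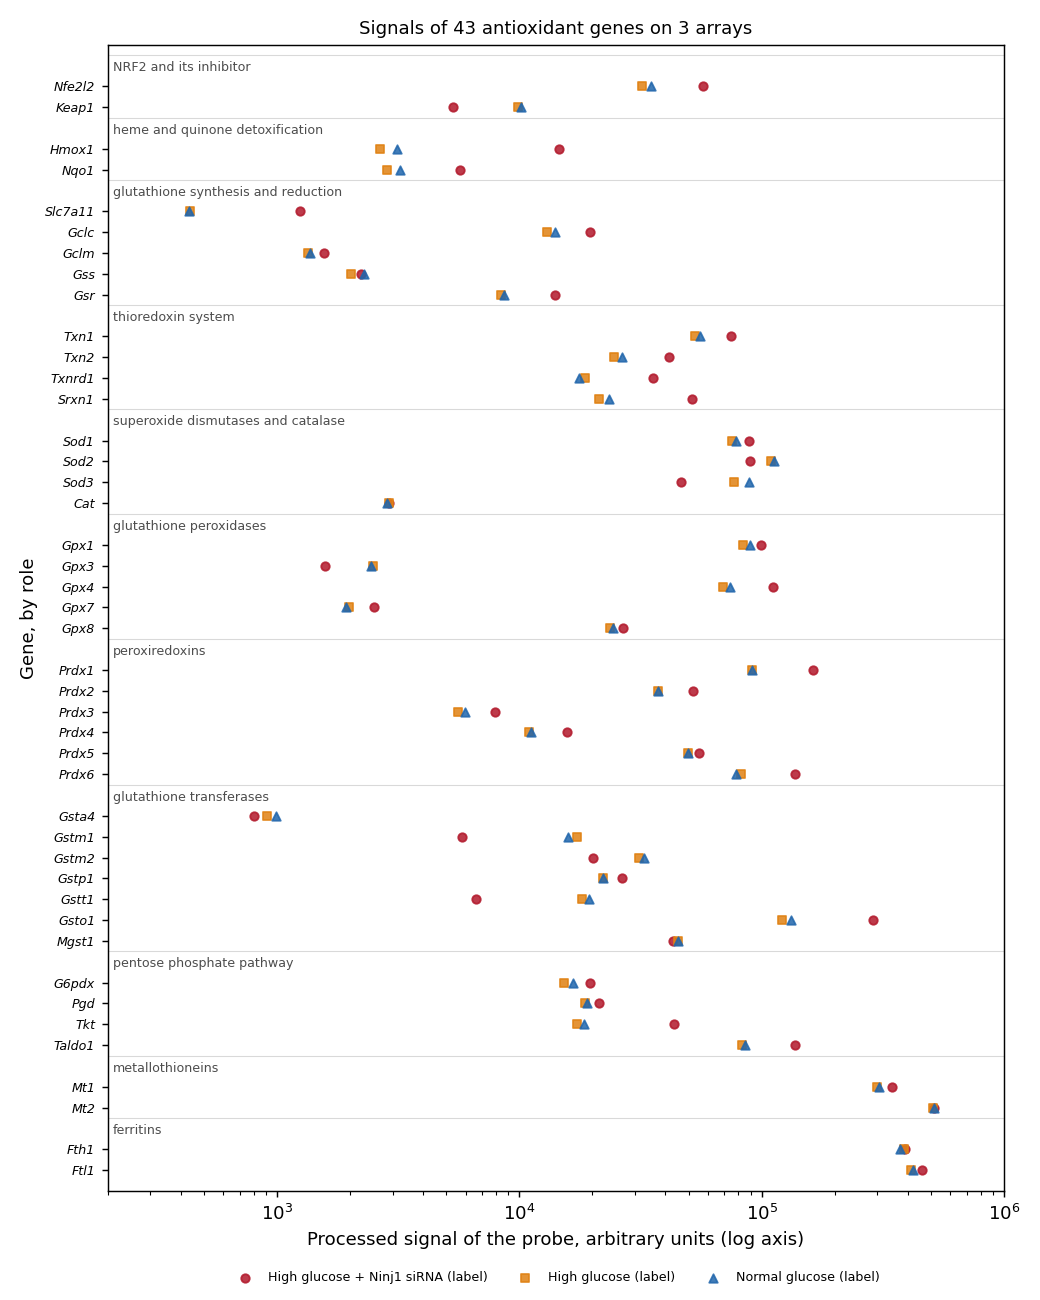
Processed signal (log axis, arbitrary units, before scaling) of the probe representing each of the 43 genes, arranged by role, on the siRNA, high-glucose and normal-glucose arrays. The high-glucose and normal-glucose symbols nearly coincide, while the siRNA symbol stands to the right for Hmox1 (14513 against 2648) and to the left for Gstt1 (6622 against 18116).

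The pathway's regulators differed in opposite directions. Nfe2l2 itself read 57101 on the siRNA array, 32125 on the high-glucose array and 34811 on the normal-glucose array, and Keap1 read 5309 (siRNA), 9871 (high glucose) and 10126 (normal glucose). Both genes have the siRNA array at one end and the other arrays close together. Nfe2l2 was 1.52-fold higher and Keap1 2.18-fold lower on the siRNA array than on the high-glucose array (log2 differences 0.60 and -1.12). Each rests on 1 probe with 1 spot per array.

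Heme and quinone detoxification held the largest difference of the set. Hmox1, the heme oxygenase that breaks heme down to biliverdin, iron and carbon monoxide, read 14513 on the siRNA array, 2648 on the high-glucose array and 3120 on the normal-glucose array. It was 4.68-fold higher on the siRNA than on the high-glucose array (2.23). Its second, dimmer probe read 1295 (siRNA), 503 (high glucose) and 534 (normal glucose) and was 2.20-fold higher, so the probes share a direction and differ in size. Averaged over both probes the difference was 1.68. Nqo1, the quinone reductase often used as a readout of NRF2, read 5679 (siRNA), 2848 (high glucose) and 3203 (normal glucose) and was 1.70-fold higher.

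Among glutathione genes, signals were higher for cystine import and for reduction, and differed less for synthesis. Glutathione itself was not measured on these arrays. Slc7a11, the cystine and glutamate exchanger that feeds cysteine to glutathione, read 1242 on the siRNA array, 437 on the high-glucose array and 433 on the normal-glucose array, and was 2.43-fold higher on the first than on the second. The siRNA array alone stands high for this gene. Gsr, the reductase that returns oxidised glutathione to its reduced form, was 1.43-fold higher on either of its 2 probes.

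For the glutamate-cysteine ligase, the rate-limiting step of glutathione synthesis, the catalytic subunit Gclc was 1.28-fold higher and the modifier subunit Gclm differed by -0.01 (1564, 1341 and 1361 on the siRNA, high-glucose and normal-glucose arrays). The Gclm sign changed with the scaling. Gss, which completes glutathione, read 2220 (siRNA), 2016 (high glucose) and 2293 (normal glucose) and differed by -0.09, near the spot spread.

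All 4 members of the thioredoxin system were higher on the siRNA than on the high-glucose array, by 1.19-fold to 2.08-fold. Srxn1, the sulfiredoxin that repairs overoxidised peroxiredoxins, read 51712 on the siRNA array, 21239 on the high-glucose array and 23489 on the normal-glucose array (2.08-fold, log2 1.06). Txnrd1, the cytosolic thioredoxin reductase, read 35697 (siRNA), 18597 (high glucose) and 17632 (normal glucose) (1.64-fold). The mitochondrial thioredoxin Txn2 was 1.45-fold and the cytosolic Txn1 1.19-fold higher.

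**Figure D2:**
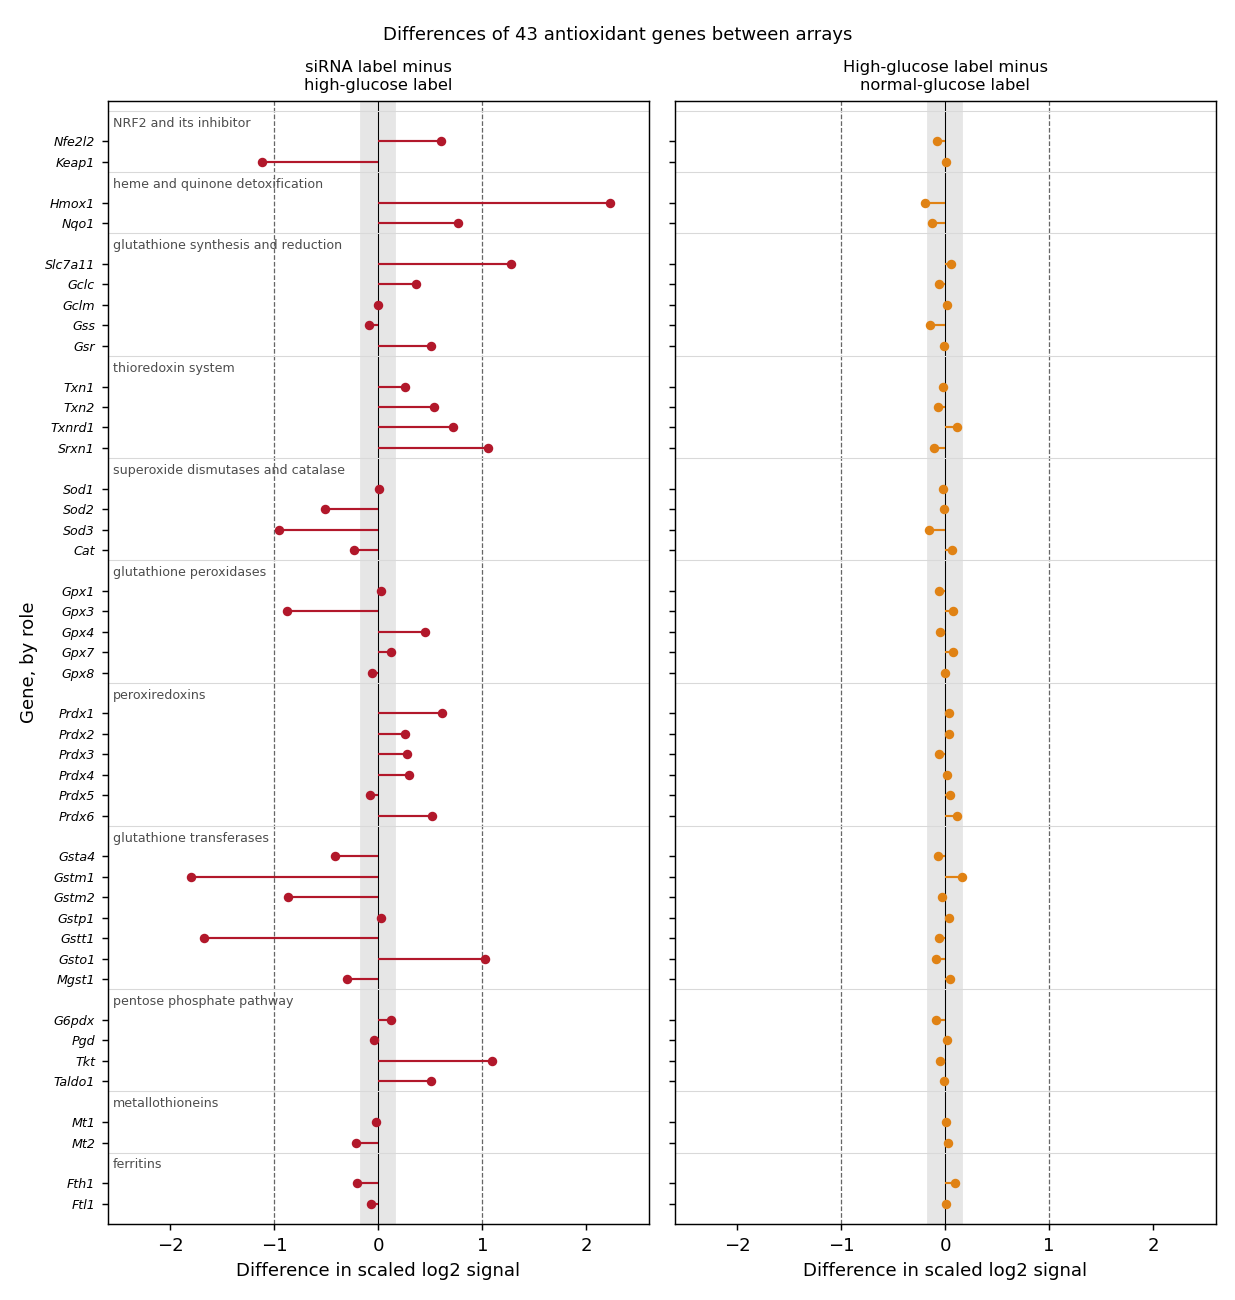
Difference in scaled log2 signal for each of the 43 genes, by role, for the siRNA array minus the high-glucose array (left) and the high-glucose array minus the normal-glucose array (right). Dashed lines mark 2-fold and the grey band 2 times the spot spread of a difference (0.16), which holds 12 members on the left and 42 on the right.

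The peroxiredoxins, which reduce peroxides with electrons from thioredoxin, were mostly higher on the siRNA array: 5 of 6 were above the high-glucose array, with a median of 0.29, although only 1 reached 1.5-fold. Prdx1 read 162635 on the siRNA array, 90834 on the high-glucose array and 90938 on the normal-glucose array (1.53-fold, and 1.41-fold on its second probe). Prdx6, the member that also has phospholipase activity, was 1.43-fold higher on its brightest probe and 1.61-fold to 1.70-fold on its other 3 probes. Prdx3, the mitochondrial form, is 1 of 2 members read by 10 spots: it was 1.22-fold higher (0.28), with a spot SD of 0.06 on the siRNA array and on the high-glucose array. Prdx2 and Prdx4 were 1.19-fold and 1.23-fold higher. Prdx5, found in several compartments, read 55335, 49811 and 49610 on the siRNA, high-glucose and normal-glucose arrays and differed by -0.08.

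Glutathione peroxidases and the superoxide branch did not share this direction. Gpx3, the secreted plasma peroxidase, read 1581 on the siRNA array, 2485 on the high-glucose array and 2430 on the normal-glucose array and was 1.84-fold lower on the first than on the second. Gpx4, which reduces lipid peroxides in membranes, read 111024 (siRNA), 69509 (high glucose) and 74013 (normal glucose) and was 1.36-fold higher. The cytosolic Gpx1 and the endoplasmic reticulum forms Gpx7 and Gpx8 lay between -0.06 and 0.12, with the sign of Gpx1 turning under other scalings.

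Among superoxide dismutases, the extracellular Sod3 read 46540, 77173 and 88391 on the siRNA, high-glucose and normal-glucose arrays. It was 1.94-fold lower on the siRNA than on the high-glucose array and 2.16-fold lower than on the normal-glucose array. The mitochondrial Sod2 was 1.43-fold lower and the peroxisomal catalase Cat 1.17-fold lower, or 1.38-fold on its second probe. The cytosolic Sod1 read 88539 (siRNA), 75238 (high glucose) and 78355 (normal glucose) and differed by 0.01, with a sign that turned under other scalings. Sod3 and Gpx3, both secreted enzymes, had the lowest difference of their role.

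Glutathione transferases, which join glutathione to electrophiles, held both large lower and large higher values. Gstm1, of the mu class, read 5810 on the siRNA array, 17255 on the high-glucose array and 15889 on the normal-glucose array, 3.48-fold lower on the first than on the second, with its other probe 3.80-fold lower. Gstt1, of the theta class, read 6622 (siRNA), 18116 (high glucose) and 19374 (normal glucose) and was 3.20-fold lower. Both genes had the siRNA array well below the others.

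Gstm2 was 1.82-fold lower, with all 3 of its probes between 1.82-fold and 1.88-fold. Gsta4, of the alpha class, was 1.33-fold lower over 10 spots per array (-0.41), and the microsomal Mgst1 was 1.23-fold lower, or 1.24-fold on its second probe. Gsto1, an omega class enzyme that also reduces dehydroascorbate, stood opposite to these, at 287185 on the siRNA array, 120760 on the high-glucose array and 131843 on the normal-glucose array (2.03-fold higher). Gstp1, of the pi class, differed by 0.03 with a sign that changed with the scaling. Genes of the mu class, and those of the pi class, are near copies of one another, and cross-hybridisation between them cannot be told apart.

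In the pentose phosphate pathway, which regenerates NADPH for both glutathione and thioredoxin, the enzymes of the non-oxidative branch were higher and those of the oxidative branch near 0. Tkt, transketolase, read 43291 on the siRNA array, 17279 on the high-glucose array and 18416 on the normal-glucose array (2.14-fold higher on the first than on the second). Taldo1, transaldolase, was 1.42-fold higher. G6pdx, whose product makes the first NADPH of the pathway, differed by 0.13 and Pgd, the other dehydrogenase of that branch, which read 21253 (siRNA), 18672 (high glucose) and 19020 (normal glucose), by -0.04.

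Metallothioneins and ferritins, which bind metals and store iron, differed little. Mt1 read 344287 on the siRNA array, 299253 on the high-glucose array and 305854 on the normal-glucose array, and Mt2 read 515181 (siRNA), 511043 (high glucose) and 515589 (normal glucose). Scaled, Mt1 differed by -0.02 and Mt2 by -0.22 between the siRNA and high-glucose arrays. With other processing, Mt1 ran from -0.24 to -0.01 and Mt2 from -0.45 to -0.05. The heavy ferritin chain Fth1 read 391986 (siRNA), 385610 (high glucose) and 370506 (normal glucose) and the light chain Ftl1 460220, 412555 and 421557 on the siRNA, high-glucose and normal-glucose arrays. They differed by -0.20 and -0.07, and the Ftl1 value turned to 0.10 with quantile normalization and was -0.30 with cyclic loess. No spot on the arrays was saturated.

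**Figure D3:**
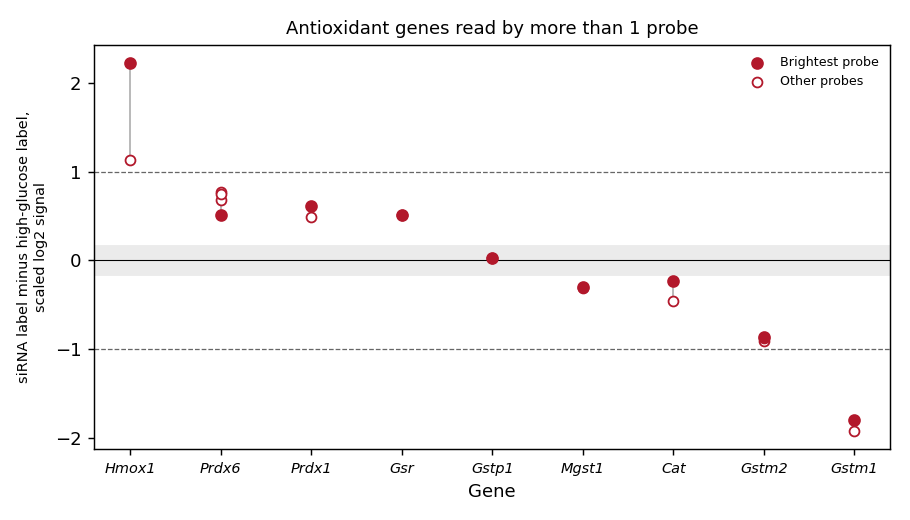
Difference in scaled log2 signal between the siRNA and high-glucose arrays for the 9 genes read by more than 1 probe. Filled symbols are the brightest probe and open symbols the others; dashed lines mark 2-fold and the grey band 2 times the spot spread of a difference. The probes of each of the 9 genes lie on the same side of 0, and Hmox1 has the widest gap (2.23 and 1.14).

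The stretches before the transcription start were read for the letters of 3 motifs, because 9 members were at least 1.5-fold higher together. Below, "either" means either of the first 2. The core of the antioxidant response element was searched as TGACNNNGC and the AP-1 site, which such elements often contain, as TGANTCA, on both strands, in the 250 bases before each start (RefSeq, GRCm38.p6). The third, the core of the metal response element, was searched as TGCACNC or TGCGCNC in the same way. A promoter was found for 37 members; Hmox1, Gclc, Gsr, Sod3, Prdx6 and Gsta4 were not matched. Of the 8 higher members with a promoter, 3 held the first motif and 4 held either, against none of 5 lower members with a promoter and 6 of 24 others. Some members have several annotated starts: counted by start, either motif stood in 4 of 10 for the higher members, 0 of 6 for the lower and 6 of 30 for the others, and in Txnrd1 it stood at 1 of 3 starts. Over all 32851 promoters, 10.2% held TGACNNNGC, 6.75% held TGANTCA and 16.1% held either. The third motif stood in 21.4% of all promoters and in 10 of the 37 members. Of the higher members only Srxn1 held it, and of the lower members Gstm1 and Gstt1 did.

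The 4 promoters of the higher members that held TGACNNNGC or TGANTCA are shown 5′ to 3′ on the gene's strand. Letters matching these motifs are in capitals, and those of the metal response element are not marked. They lie at chr2:75704664-75704913 on the minus strand (Nfe2l2), chr4:116685349-116685598 on the plus strand (Prdx1), chr2:152105274-152105523 on the plus strand (Srxn1) and chr10:82858956-82859205 on the plus strand (Txnrd1).
Nfe2l2: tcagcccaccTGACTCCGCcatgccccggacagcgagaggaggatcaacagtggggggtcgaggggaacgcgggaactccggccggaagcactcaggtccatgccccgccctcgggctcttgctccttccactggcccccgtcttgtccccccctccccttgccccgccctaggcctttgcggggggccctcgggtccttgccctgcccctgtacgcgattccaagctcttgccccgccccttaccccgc
Prdx1: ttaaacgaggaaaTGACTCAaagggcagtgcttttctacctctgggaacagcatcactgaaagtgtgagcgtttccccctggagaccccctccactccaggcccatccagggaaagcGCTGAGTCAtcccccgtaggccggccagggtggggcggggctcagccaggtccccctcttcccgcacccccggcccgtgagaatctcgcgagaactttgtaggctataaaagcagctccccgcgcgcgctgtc
Srxn1: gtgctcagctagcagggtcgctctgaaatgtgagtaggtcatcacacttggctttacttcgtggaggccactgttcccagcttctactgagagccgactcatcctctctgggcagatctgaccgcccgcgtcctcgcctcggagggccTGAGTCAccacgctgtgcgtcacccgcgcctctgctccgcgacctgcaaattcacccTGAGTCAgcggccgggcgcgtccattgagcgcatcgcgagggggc
Txnrd1: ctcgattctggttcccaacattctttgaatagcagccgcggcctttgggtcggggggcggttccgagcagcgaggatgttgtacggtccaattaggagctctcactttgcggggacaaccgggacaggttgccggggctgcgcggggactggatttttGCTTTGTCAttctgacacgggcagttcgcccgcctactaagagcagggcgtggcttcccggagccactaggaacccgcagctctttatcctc

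Prdx1 held an AP-1 site alone, 237 bases before the start, and one inside a reverse-strand match of the longer motif 133 bases before it. Srxn1 held 2 AP-1 sites, 102 and 45 bases before the start, and no TGACNNNGC, a count of AP-1 letters that 0.338% of all promoters reached. Slc7a11, Nqo1, Tkt and Gsto1 held neither in this window. A match is a description of the letters and shows no binding.

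Antioxidant genes were nearly level between the high-glucose and normal-glucose arrays, as were genes in general. This rests on the labels: with the 2 high-glucose arrays exchanged, 3 members were at least 2-fold higher and 4 lower in this comparison. No member was 1.5-fold apart in either direction, beside 1.52% of 15081 genes at least that much higher and 1.24% lower, and at 2-fold the background was 0.816% and 0.69%. The median member difference was -0.01, the same to 2 decimals as over all genes, with members between -0.20 and 0.16 and their quartiles at -0.06 and 0.04, beside -0.07 and 0.05 for all genes. Hmox1 was the lowest (1.14-fold lower, and -0.04 on its second probe), followed by Sod3 (1.11-fold lower) and Gss (-0.14), and Gstm1 the highest (1.12-fold higher). All but Hmox1 lay within 0.16 of 0, which is 2 times the spot spread of a difference. Nfe2l2, Keap1, Mt1 and Mt2 were at -0.07, 0.00, 0.01 and 0.03.

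**Figure D4:**
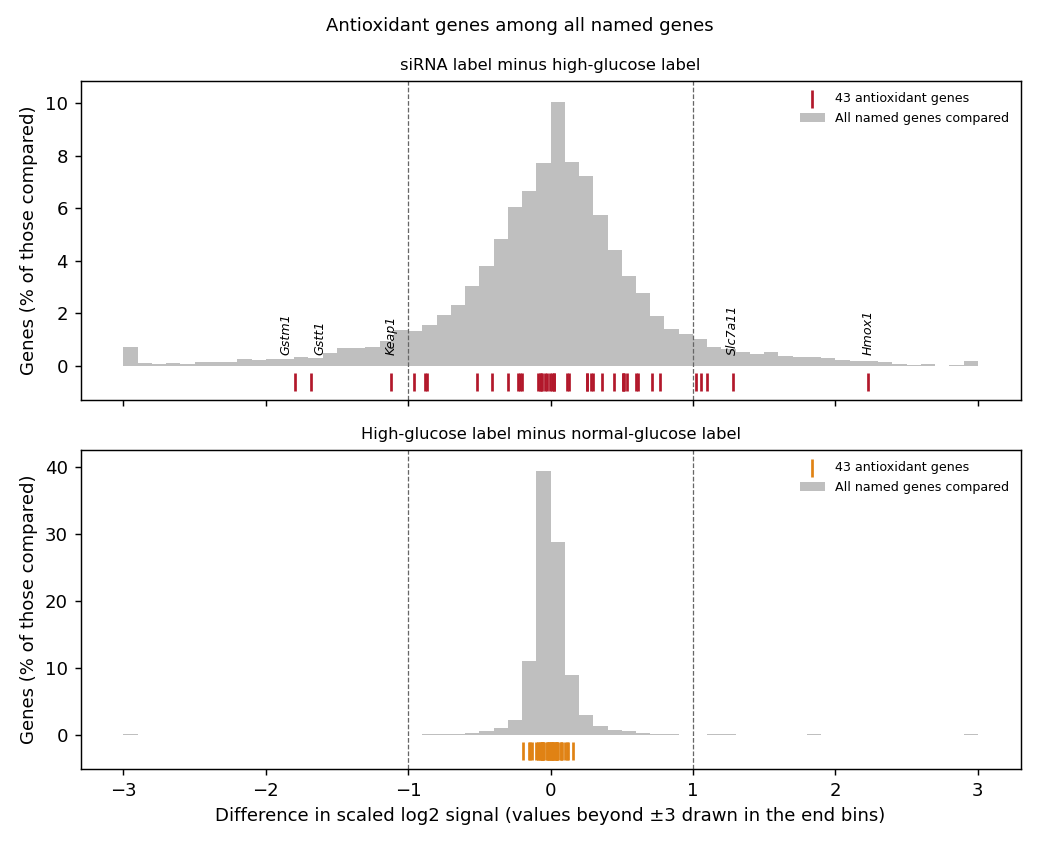
Share of all named genes (grey bars, % of those compared) by difference in scaled log2 signal, with a tick for each of the 43 antioxidant genes, for the siRNA array minus the high-glucose array (top) and the high-glucose array minus the normal-glucose array (bottom). Dashed lines mark 2-fold. The ticks spread from -1.80 (Gstm1) to 2.23 (Hmox1) in the top panel and from -0.20 to 0.16 in the bottom panel.

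Set against normal glucose, which shares the siRNA array with the comparison above, 3 members were at least 2-fold higher on the siRNA array (Hmox1 4.09-fold, Slc7a11 2.52-fold and Tkt 2.07-fold), or 6.98% beside 6.35% of all genes. Srxn1 and Gsto1 lay just under 2-fold here, at 1.94-fold and 1.92-fold. The 4 members at least 2-fold lower (9.3% beside 7.93% of all genes) were Gstt1 (3.33-fold), Gstm1 (3.11-fold), Keap1 (2.17-fold) and Sod3 (2.16-fold). At 1.5-fold, 9 members were higher and 6 lower, beside 13.8% and 15.4% of all genes.

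Of 82 further genes listed for the pathway, 81 were compared between the siRNA and high-glucose arrays. At 2-fold, 5 (6.17%) were higher and 7 (8.64%) lower. Both shares are close to those of all genes, and the median was 0.03. Hpgds, a prostaglandin D synthase that uses glutathione, stayed near background throughout.

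Among 9 other regulators of NRF2, Sqstm1, an autophagy receptor that binds KEAP1, was 1.57-fold higher and the MAF partner Mafg 1.24-fold higher on the siRNA than on the high-glucose array. Trim21, a ubiquitin ligase, was 2.01-fold lower (2186 on the siRNA array, 3755 on the high-glucose array and 3622 on the normal-glucose array). Bach1, the repressor that competes for the same DNA element and holds down Hmox1, was 1.21-fold lower. The list of 18 other targets did not separate genes that NRF2 switches on from genes it holds down. Past 2-fold, it held 0 higher and 2 lower genes, with 6.52% and 8.21% of all genes past that fold. The export pumps Abcc1 and Abcc4 were 1.96-fold and 1.83-fold higher. Txnip, which binds and inhibits thioredoxin, was 3.79-fold lower and Idh1, a source of cytosolic NADPH, 2.02-fold lower. The direction of Txnip is not read here as NRF2 activity.

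Past 2-fold, 28 further glutathione genes held 4 higher and 2 lower ones, beside the same 6.52% and 8.21%. The alpha class transferases Gsta1 and Gsta2, near paralogs on dim probes, were 3.25-fold and 2.31-fold higher (401 and 215 on the siRNA array, 105 and 79.5 on the high-glucose array). Ggt5, a gamma-glutamyltransferase, was 23.6-fold lower, at 26.6 on the siRNA array, 537 on the high-glucose array and 521 on the normal-glucose array. Gstm4, another mu class gene, was 3.17-fold lower, the same direction as Gstm1 and Gstm2. The other mu class genes of this list differed by less than 1.5-fold. Cross-hybridisation within the class cannot be told apart here either. Of 14 further thioredoxin and methionine sulfoxide genes, the selenoproteins Selenow and Selenot were 1.69-fold and 1.26-fold higher, the sestrin Sesn1 was 2.18-fold lower and the nucleoredoxin gene Nxn 1.81-fold lower.

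Markers of other cell types differed with the siRNA array. Over all genes, 47.5% were lower on it than on the high-glucose array, 8.21% at least 2-fold, and 6.52% were at least 2-fold higher. Of 12 fibroblast markers 10 were lower on it than on the high-glucose array, 5 of them at least 2-fold, and their summed signal was 1264574 on the siRNA array, 1433325 on the high-glucose array and 1479366 on the normal-glucose array. Of 9 smooth muscle and pericyte markers compared 7 were lower, 5 at least 2-fold, with sums of 63861 (siRNA), 118630 (high glucose) and 124978 (normal glucose), and Myh11 was not well above background anywhere. Of 12 endothelial markers compared 5 were higher and 7 lower, 2 and 4 of them at least 2-fold, with sums of 17237 (siRNA), 13596 (high glucose) and 13817 (normal glucose). Of 9 macrophage markers compared 4 were higher and 5 lower, 1 and 3 of them at least 2-fold. Their sums were 42562 (siRNA), 34320 (high glucose) and 36603 (normal glucose). Cd14 was 2.86-fold higher and read 16711 (siRNA) and 4989 (high glucose). Adgre1, Lyz2 and Ptprc were 4.18-fold, 4.13-fold and 2.38-fold lower. The sums of all these lists are before scaling and weigh the brightest genes most. The part of these shifts in the antioxidant differences was not tested.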

How the data were processed

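Total RNA pooled over 3 samples per group was hybridised with Cy3 to 1 array a group, per the labels. Per the file headers, the authors extracted spot intensity with Agilent Feature Extraction 11.0.1.1, which gave a background-subtracted processed signal; the series value table they deposited holds the same intensity, within 0.1% for 100% of probes with 1 spot. Outlier spots were dropped: 107 for siRNA, 147 for high glucose and 109 for normal glucose. The log2 signal was averaged per probe and each array's 75th percentile subtracted. The filter kept probes with 50% of spots marked well above background, and the brightest one stood for its gene. Probes were named by accession through RefSeq genes of GRCm38.p6 (26055 of 39429 probes). A difference with 1 dim side is a bound; no member had one. Precision is limited by 1 array a group. The members and lists were chosen with earlier results of these data known. Named genes followed a written rule, to which Kdr, Pecam1 and Pgls are exceptions. Every member was named. Values on each array were given for members past 2-fold, the largest difference each way of each role, NRF2, its inhibitor and metallothioneins. From each other pathway list came up to 2 of the largest differences each way. Of the cell type markers, none was named except some past 2-fold or nowhere above background. Python 3.11.15, pandas 2.3.3, R 4.3.3 and limma 3.58.1 were used. The steps were run on copies of the normal-glucose array with spot noise (SD 0.0575), a constant shift per array and planted folds. All 50 genes planted at 2.5-fold came out past 2-fold, and 0 of 14549 unchanged genes did. These copies held no culture or hybridisation error, so the run checks the code only. Alternatives were quantile normalization, cyclic loess, median scaling, normexp with an offset of 50 on the median spot and background signals, the value table, other dim-probe filters, the mean over probes, other fold thresholds and both high-glucose labels exchanged.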

Additional observations from a re-analysis of the deposited data

How the results depend on the processing

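Between the siRNA and high-glucose arrays, 5 members were at least 2-fold higher; with quantile normalization or cyclic loess the count was 2 (Hmox1 and Slc7a11), where Tkt, Srxn1 and Gsto1 lay under 2-fold, and 4 were lower in place of 3, Sod3 being added. Lowering the threshold to 1.5-fold gave 9 higher and 6 lower, and 3-fold left 1 higher. Against normal glucose, 1.5-fold gave 9 higher and 3-fold gave 1 higher and 2 lower on the siRNA array. Exchanging the 2 high-glucose arrays turns the first comparison round, with 3 higher and 5 lower, gives 3 higher and 4 lower for high glucose against normal glucose, and leaves 0 either way where siRNA is set against normal glucose. Under 8 alternatives of normalization, background, filter and probe choice, 38 of 43 members kept their sign between the siRNA and high-glucose arrays and 5, none larger than 0.07, did not. Between high and normal glucose 33 kept it and 10, none larger than 0.04, did not. Of 688 member values recomputed over these 2 comparisons, 630 moved by less than the spot spread of a difference and 58 by more. Cyclic loess moved 31 of 86 by more, quantile normalization 21, the mean over probes 4 and normexp 2. The dim-probe filters, the value table and median scaling moved 0. All members were above background and the value table holds the same intensity, so these settings could hardly move them. Median scaling shifts all genes alike. No replicate could be left out. No paired analysis was possible because each group is 1 array.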

Other observations

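Of 12 genes of metal and iron handling compared between the siRNA and high-glucose arrays, 1 was past 2-fold higher and 1 lower, near the 6.52% and 8.21% of all genes. The list's median difference was 0.08, beside -0.12 for the metallothioneins and -0.14 for the ferritins. Tfrc, the transferrin receptor that brings iron into cells, read 2609 on the siRNA array, 992 on the high-glucose array and 1003 on the normal-glucose array (2.25-fold higher on the first than on the second). Ireb2, an iron regulatory protein, was 1.53-fold higher. Cp, the copper-binding ferroxidase ceruloplasmin, read 29749 (siRNA), 67148 (high glucose) and 62879 (normal glucose) and was 2.64-fold lower, and the zinc and iron importer Slc39a14 was 1.33-fold lower.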
